A study of Mus musculus with 8 samples.

Results

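Dentate granule cells (DGCs) are described here as the 4896 nuclei, of 29425 in all, to which the authors' annotation gives the type GC. They came from single nucleus RNA sequencing (snRNAseq) of 4 samples, each made from both hippocampi of 1 male mouse aged 12 weeks. The 2 mutant mice were Wls fl/- ; Gfap-Cre and the 2 control mice were Wls fl/+ ; Gfap-Cre, so that both genotypes carried the Cre transgene and a floxed copy of *Wls*, and the control also carried an intact copy. Cre driven by the *Gfap* promoter acts in a subset of cortical progenitors and is not specific to DGCs. Bulk RNAseq of hippocampi from 2 mice of each genotype gave a second readout.

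DGCs are the excitatory principal neurons of the dentate gyrus. They receive input from the entorhinal cortex and send mossy fibres to CA3 pyramidal cells and to mossy cells of the hilus. Their progenitors arise beside the cortical hem, a source of Wnt proteins, and *Wls* encodes the carrier protein that Wnts need for secretion. DGCs at the dorsal and the ventral end of the hippocampus differ in some of the genes they express.

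DGC nuclei were a large class in the control samples and a small class in the mutant samples. Control replicates 1 and 2 held 2336 DGC nuclei among 6469 and 2007 among 7192, which is 36.1% and 27.9%. Mutant replicates 1 and 2 held 90 among 5304 and 463 among 10460, which is 1.70% (exact 95% binomial interval 1.37 to 2.08, counting error only) and 4.43% (4.04 to 4.84). The groups did not overlap, and the mean share was 32.0% ± 5.80 (SD, n = 2) in the control and 3.06% ± 1.93 (SD, n = 2) in the mutant. By edgeR's quasi-likelihood test on the numbers of nuclei, the log2 fold change was -3.38 with a standard error of 0.614 and an unadjusted p of 0.00436, and the FDR over the 21 annotated types was 0.0916. An exact two-sided permutation test gave p = 0.333, the smallest that 2 mice against 2 allow. Among neuronal nuclei alone the shares were 43.1% and 39.6% in the control and 1.82% and 6.22% in the mutant.

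**Figure D1:**
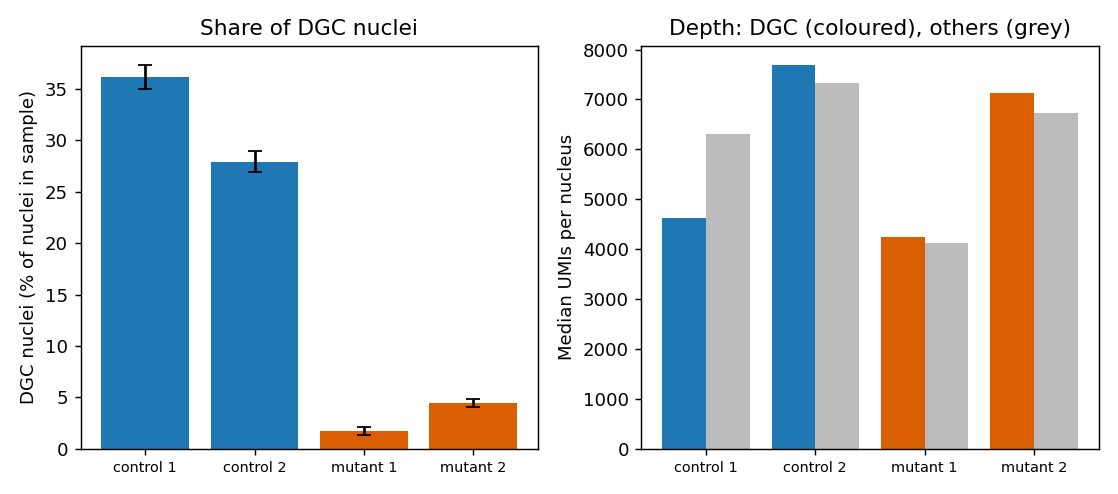
Left, DGC nuclei as a percentage of all nuclei of each sample, with exact 95% binomial intervals. Right, median UMIs per nucleus for DGCs (coloured) and for all other nuclei (grey). The shares separate the genotypes, from 27.9% up in the control and from 4.43% down in the mutant, whereas the depth of DGC nuclei is higher in replicate 2 than in replicate 1 of both genotypes.

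A unique molecular identifier (UMI) marks 1 captured transcript, and the UMIs per nucleus set the precision. The median DGC nucleus held 4628 and 7688 UMIs in control replicates 1 and 2 and 4242 and 7126 in mutant replicates 1 and 2. These groups overlapped, and the mutant mean was 0.923 times the control mean (exact two-sided permutation p = 0.667). Summed over nuclei, DGCs gave 11373853 and 16265045 UMIs in the control and 414115 and 3425544 in the mutant. A single UMI was therefore worth 2.41 CPM, the UMI count scaled to a common library total, in mutant replicate 1 and 0.292 CPM in mutant replicate 2, and levels of low genes in mutant replicate 1 rest on a handful of molecules. The samples shared 87 cell barcodes in all over the 6 pairs of samples, of which 6 were DGC barcodes in both samples of a pair.

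The annotation was set beside *Prox1*, the transcription factor that specifies DGCs, *C1ql3*, a secreted synapse organizer, *Lgr6*, a receptor for R-spondins, and *Synpr*, a synaptic vesicle protein. It was made by clustering the expression of these same nuclei, so that the markers are no independent check of it. After thinning of each nucleus to 1500 UMIs, a UMI of any of these 4 genes was found in 89.9% to 92.8% of DGC nuclei, in 14.4% to 21.0% of CA1 nuclei and in 41.5% to 53.0% of oligodendrocytes, over the 4 samples. Without thinning the shares were at least 98.9% in DGCs, 46.2% to 74.9% in CA1 and 50.7% to 56.4% in oligodendrocytes, at median depths of 4242 to 7688, 5270 to 12160 and 1727 to 2339 UMIs. Their summed level in DGC nuclei was 1662 and 1924 CPM in the control and 1722 and 1826 CPM in the mutant, against 211 to 259 CPM in the other nuclei. Against the 8 other annotated types tabulated, which leave out the inhibitory and remaining excitatory clusters, control *Lgr6* was 11.2 times higher in DGCs than in the next type and *C1ql3* 3.25 times, whereas *Prox1* and *Synpr* were 1.29 and 1.62 times higher than in oligodendrocytes. None of the 4 passed the test between genotypes described below, with log2 fold changes between -0.45 for *C1ql3* and 0.38 for *Lgr6*.

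*Wls* itself was low in DGC nuclei, at 3.34 and 4.43 CPM in control replicates 1 and 2 and 4.83 and 5.55 CPM in mutant replicates 1 and 2, without scaling. Only 2 and 19 UMIs stood behind the mutant values, and the groups did not differ by the test below (log2 fold change 0.49, FDR 0.622 in edgeR). In all other nuclei together it was at 27.8 and 35.6 CPM in the control and at 6.99 and 12.02 CPM in the mutant, so that the targeted gene was lower in both mutant samples. Microglia had a control level of 184 CPM.

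Between genotypes, UMIs were summed over the DGC nuclei of each mouse, and 15003 genes were tested with edgeR's quasi-likelihood test. A gene was called when it differed by a fold change (FC) above 2 with an FDR, the Benjamini-Hochberg adjusted p over all genes tested, below 0.05. From here on, levels in DGC nuclei are CPM of the library total scaled by TMM unless another scale is named. In the mutant 124 genes were higher, 0.827% of those tested, and 96 were lower, 0.64%. The study used a regression over single nuclei, at FC above 2 and a q-value below 0.05. It named only *Trps1* and *Cntnap5a*, in a subset of excitatory neurons and not in DGCs. The calls given here come from another method, with the mouse as the unit. The median log2 fold change over all genes tested was -0.01. The study places most of the DGCs that remain in mutants in the ventral dentate gyrus. In sums over nuclei, another mix of dorsal and ventral DGCs and another level per nucleus cannot be told apart. The words rose and fell below compare these sums and do not mean a change within nuclei.

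The genes that the study places in ventral and in dorsal DGCs differed between genotypes in opposite directions. All 6 ventral genes were called higher, and their median change was 2.07 on the log2 scale. A stricter setting left out nuclei with 2 or more genes of a glial or inhibitory neuron list. It kept 41 and 70 mutant nuclei, and in it *Pde9a* and *Timp2* were not called (FDR 0.374 and 0.164 in edgeR). *Pde9a* was not called with equal numbers of nuclei either (FDR 0.212 in edgeR). Of the 6 dorsal genes, 4 were lower and 2 were not called, with a median of -1.80. DESeq2 called *Robo3* but not *Dhrs7*, *Lct* or *Sox4* (adjusted p 0.192, 0.116 and 0.191), and without nuclei that held genes of another type edgeR called none of the 4, with *Robo3* at an FDR of 0.0559 and a log2 fold change of -2.54. The study chose both lists from maps of these same nuclei together with published in situ hybridization images, so that their directions are not independent evidence.

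*Trhr*, the receptor for thyrotropin-releasing hormone (GRCm38 chromosome 15, 44196135 to 44235912), was at 6.67 and 7.48 CPM in control replicates 1 and 2 and at 59.8 and 57.9 CPM in mutant replicates 1 and 2, from 76, 121, 25 and 195 UMIs. Both mutant samples lay far above both controls, and the fitted change was 8.22-fold (log2 3.04, standard error 0.219, FDR 0.00164 in edgeR). *Ano2*, a calcium-activated chloride channel on chromosome 6 (125690419 to 126040126), was at 14.5 and 11.2 CPM in the control and 33.5 and 76.1 CPM in the mutant, and rose by 2.31 on the log2 scale. *Stk32b*, a serine/threonine kinase on chromosome 5 (37446825 to 37717171), was at 9.04 and 15.3 CPM in the control and 35.9 and 70.7 CPM in the mutant, a log2 change of 2.29. In these 2 genes and in *Pde9a* and *Timp2*, mutant replicate 2 was more than 1.5 times as high as mutant replicate 1, whereas in *Trhr* the 2 mutants were alike.

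*Atp2b4*, a calcium pump of the plasma membrane, was at 35.5 and 36.1 CPM in the control and at 90.9 and 116.8 CPM in the mutant (log2 1.59). *Pde9a*, a cyclic GMP phosphodiesterase, was at 12.7 and 12.6 CPM in the control and at 19.1 and 46.6 CPM in the mutant (log2 1.64). *Timp2*, an inhibitor of metalloproteinases, was at 10.8 and 10.0 CPM in the control and at 16.7 and 45.2 CPM in the mutant (log2 1.85). For all 6 genes the mutant samples lay above the control range, as they did for 3334 of the 15003 genes tested.

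*Robo3*, a receptor of the Roundabout family that acts in axon guidance (chromosome 9, 37415669 to 37433246), was at 31.3 and 39.5 CPM in control replicates 1 and 2 and at 4.78 and 7.73 CPM in mutant replicates 1 and 2, from 357, 639, 2 and 26 UMIs. It was 4.87-fold lower in the mutant (log2 -2.28, standard error 0.302, FDR 0.00877 in edgeR). *Sox4*, a transcription factor of immature neurons (chromosome 13, 28948919 to 28953713), was at 11.7 and 14.2 CPM in the control and at 2.39 and 3.57 CPM in the mutant, where it rested on 1 and 12 UMIs (log2 -1.92, FDR 0.0446 in edgeR). Both genes separated the genotypes, but the mutant values of *Sox4* are the less precise.

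*Lct*, which encodes the disaccharidase lactase, fell from 25.1 and 28.3 CPM to 11.96 and 9.51 CPM (log2 -1.43). *Dhrs7*, a short-chain dehydrogenase, fell from 14.0 and 13.4 CPM to 4.78 and 3.57 CPM (log2 -1.87). *Nptx2*, a secreted neuronal pentraxin, was at 8.51 and 8.04 CPM in the control and 2.39 and 2.67 CPM in the mutant, and *Il27ra*, a cytokine receptor subunit, at 6.41 and 7.36 CPM in the control and 0 and 2.38 CPM in the mutant. These last 2 were not called (FDR 0.0976 and 0.149 in edgeR). For all 6 dorsal genes the mutant samples lay below the control range, as they did for 3915 of the 15003 genes tested.

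**Figure D2:**
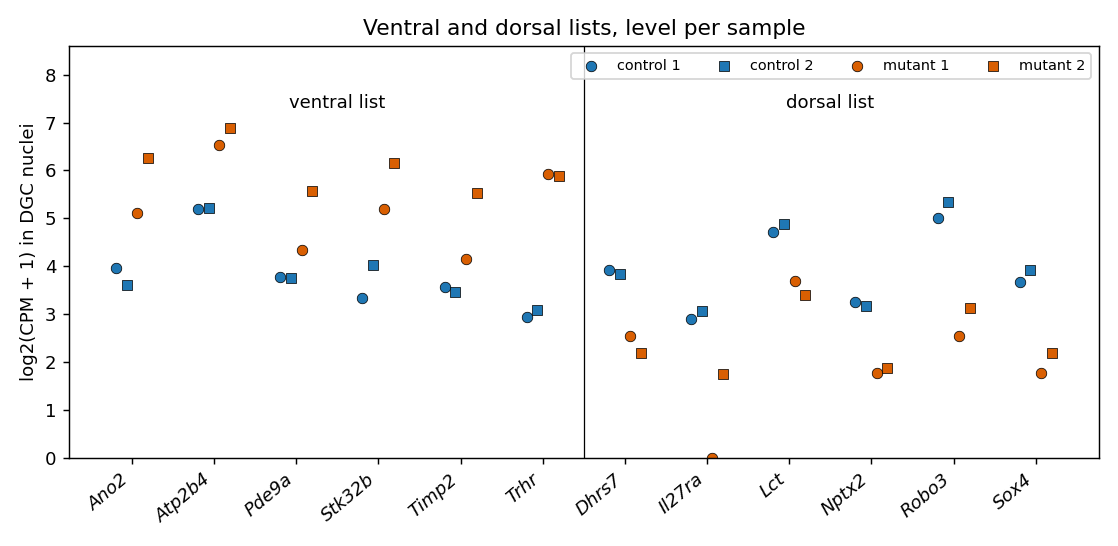
Level of the 6 ventral and the 6 dorsal genes in DGC nuclei as log2(CPM + 1), 1 point per sample, with controls in blue and mutants in orange. For every ventral gene both mutants lie above both controls, and for every dorsal gene both mutants lie below both controls. *Il27ra* was at 0 CPM in mutant replicate 1.

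The upstream sequences of the 2 genes of each list with the largest changes among those with a RefSeq entry are shown because these genes moved together. They are the 250 bases before the RefSeq transcription start (GRCm38.p6), written 5′ to 3′ on the strand of the gene, and capitals mark AGGTCA or its reverse complement TGACCT, the half-site bound by many nuclear receptors. *Ano2* has 3 RefSeq starts and the first is shown, at chr6:125690169-125690418 on the plus strand. *Stk32b* is at chr5:37717154-37717403, *Robo3* at chr9:37433176-37433425 and *Sox4* at chr13:28953700-28953949, all on the minus strand.
Ano2: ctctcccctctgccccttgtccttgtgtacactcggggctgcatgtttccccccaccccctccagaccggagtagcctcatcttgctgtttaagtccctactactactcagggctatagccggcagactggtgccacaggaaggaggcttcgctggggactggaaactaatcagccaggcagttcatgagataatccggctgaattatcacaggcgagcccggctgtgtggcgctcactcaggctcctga
Stk32b: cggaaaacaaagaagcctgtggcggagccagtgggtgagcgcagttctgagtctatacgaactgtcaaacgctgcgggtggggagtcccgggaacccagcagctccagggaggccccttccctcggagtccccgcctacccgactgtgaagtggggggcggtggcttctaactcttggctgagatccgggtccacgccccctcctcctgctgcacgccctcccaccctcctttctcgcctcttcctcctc
Robo3: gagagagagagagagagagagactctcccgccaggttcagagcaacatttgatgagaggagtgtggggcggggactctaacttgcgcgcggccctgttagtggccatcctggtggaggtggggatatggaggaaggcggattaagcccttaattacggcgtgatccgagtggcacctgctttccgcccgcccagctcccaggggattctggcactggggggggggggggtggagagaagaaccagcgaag
Sox4: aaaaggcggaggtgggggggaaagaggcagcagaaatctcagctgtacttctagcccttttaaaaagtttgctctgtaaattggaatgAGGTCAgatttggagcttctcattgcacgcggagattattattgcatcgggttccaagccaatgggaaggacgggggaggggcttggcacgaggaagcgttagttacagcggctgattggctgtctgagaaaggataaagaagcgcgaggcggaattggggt
CTTTGA or its reverse complement TCAAAG, the core recognized by the TCF and LEF proteins that act with beta-catenin, was found in none of the windows of the 8 called ventral and dorsal genes with an entry, and in 13.8% of all 32851 RefSeq windows of this length. AGGTCA or TGACCT was found in *Sox4*, 162 bases before its start, and before the third start of *Ano2*, and in 14.0% of all windows. *Trhr* and *Pde9a* had no entry and were not searched.

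Counted nucleus by nucleus, the same lists separated the genotypes after each nucleus was thinned to 1500 UMIs, a depth that all 4896 DGC nuclei reached. A UMI of any of the 6 ventral genes was found in 11.9% and 12.6% of DGC nuclei of control replicates 1 and 2, and in 35.6% and 45.8% of mutant replicates 1 and 2. Without thinning the shares were 31.3% and 39.7% in the control and 57.8% and 82.5% in the mutant. A UMI of any of the 6 dorsal genes was found in 13.7% and 14.95% of thinned control nuclei and in 4.44% and 4.32% of thinned mutant nuclei. In CA1 pyramidal nuclei, where *Robo3* for instance was at 31.2 CPM in the control without scaling against 35.3 CPM in DGCs, the ventral shares were 6.96% and 10.7% in the control and 12.2% and 16.2% in the mutant, and the dorsal shares lay between 10.2% and 13.7%. In oligodendrocytes, whose *Timp2* level was above that of DGCs, the ventral shares were 10.3% and 14.2% in the control and 15.1% and 14.9% in the mutant, and the dorsal shares 8.19% and 6.22% in the control and 1.37% and 3.42% in the mutant.

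The ventral share of control DGCs and the dorsal share of mutant DGCs thus lay within or near the range of other cell types, and are not read as expression in those nuclei. The dorsal share of control DGCs, 13.7% and 14.95%, was also near that of control CA1 nuclei, 13.7% and 11.6%. By this measure the dorsal list did not clearly set control DGCs apart from CA1 nuclei. *Trhr* was found in 1.03% and 0.747% of thinned control DGC nuclei and in 8.89% and 10.8% of mutant ones, and in at most 0.582% of thinned CA1 nuclei in any sample. In mutant replicate 2, 20 of 463 thinned nuclei held a dorsal UMI and 212 a ventral one, and 6 held both. In the controls, 1.20% and 1.25% of thinned nuclei held both.

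**Figure D3:**
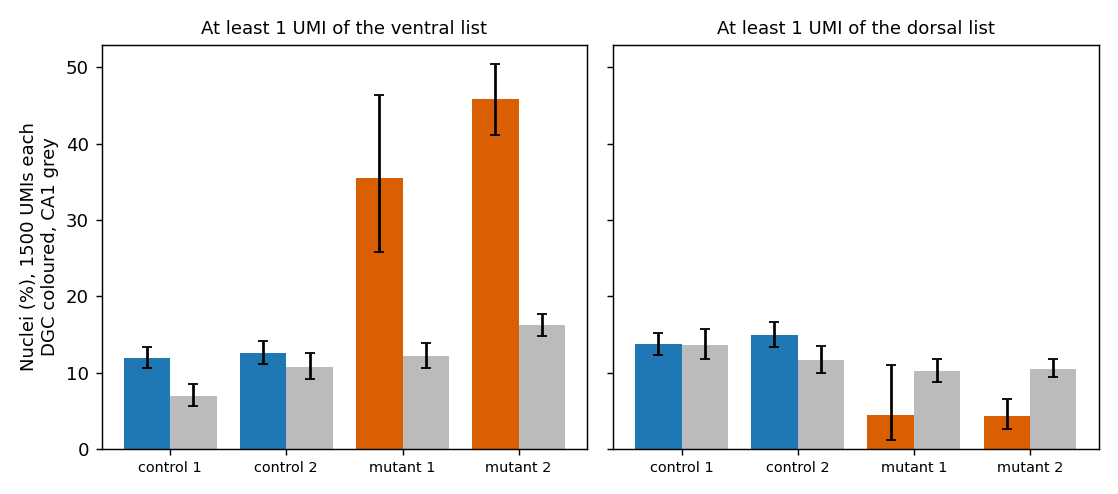
Percentage of nuclei with at least 1 UMI of the ventral list (left) or the dorsal list (right) after thinning to 1500 UMIs, in DGCs (coloured) and in CA1 nuclei (grey), with exact 95% binomial intervals for counting error. The ventral share of mutant DGCs, 35.6% and 45.8%, stands above all other bars, and the dorsal share of mutant DGCs, 4.44% and 4.32%, below all others.

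Within the control samples, genes of the dorsal list could be set against the ventral UMIs of the same nuclei. *Robo3* had 7 UMIs in the 279 thinned nuclei of control replicate 1 that held a ventral UMI and 104 in the other 2057, a log2 ratio of CPM of -0.97, and 8 against 125 UMIs in control replicate 2, a log2 ratio of -1.13. *Lct* had log2 ratios of -0.51 and -0.26, and *Sox4* of 0.10 and 0.49, from 6 and 7 UMIs in the nuclei with a ventral UMI. *Dhrs7* had log2 ratios of -0.50 and -0.64, *Il27ra* of -0.43 and -1.58, and *Nptx2* of -0.05 and -0.69, each from at most 4 UMIs in the nuclei with a ventral UMI. These are descriptions from few UMIs. The ventral share of control DGCs lay within or near the range of other cell types, so the split does not mark a ventral class of nuclei.

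Another pair of gene groups, which the study named modules 7 and 11 from the same nuclei, showed smaller differences. Of module 7, *Necab3*, a calcium-binding protein, fell from 31.9 and 36.1 CPM to 19.1 and 13.4 CPM (log2 -1.24, FDR 0.0475 in edgeR). *Arr3*, the cone arrestin, *Grp*, gastrin-releasing peptide, and *Acvr1c*, an activin receptor, had log2 fold changes of -0.75, -0.56 and -0.64 and were not called. None of the 4 genes of module 11 was called. *Fst*, the activin-binding protein follistatin, *Ryr1*, a calcium release channel, *Rhbdl3*, a rhomboid-like protein, and *Slc26a10*, of the anion exchanger family, had log2 fold changes of -0.80, -0.30, 0.28 and -0.89. After thinning, a UMI of module 7 was found in 15.3% and 15.05% of control and 8.89% and 11.0% of mutant DGC nuclei, and a UMI of module 11 in 23.1%, 23.2%, 21.1% and 22.0% in the same order.

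Of 17 genes that the study used to recognize DGCs, chosen partly from these nuclei, 1 was lower and 16 were not called, with a median log2 fold change of -0.45. The lower gene was *C1ql2*, a secreted organizer of mossy fibre synapses, which fell from 41.1 and 39.0 CPM to 7.17 and 14.9 CPM (log2 -1.57, FDR 0.0242 in edgeR). *Plk5*, a polo-like kinase of neurons, was at 51.0 and 40.8 CPM in the control and 31.1 and 17.5 CPM in the mutant and was not called (log2 -1.18, FDR 0.0706 in edgeR). The desmosomal plaque protein gene *Dsp* was at 46.3 and 39.3 CPM against 33.5 and 26.1 CPM, and the transcription factor genes *Rfx3* and *Glis3* had log2 fold changes of 0.25 and 0.51. *Npnt*, *Plekha2*, *Grm2*, *Htra4*, *Dgat2l6*, *Pdzd2* and *Fam163b* had log2 fold changes between -0.61 and -0.02.

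**Figure D4:**
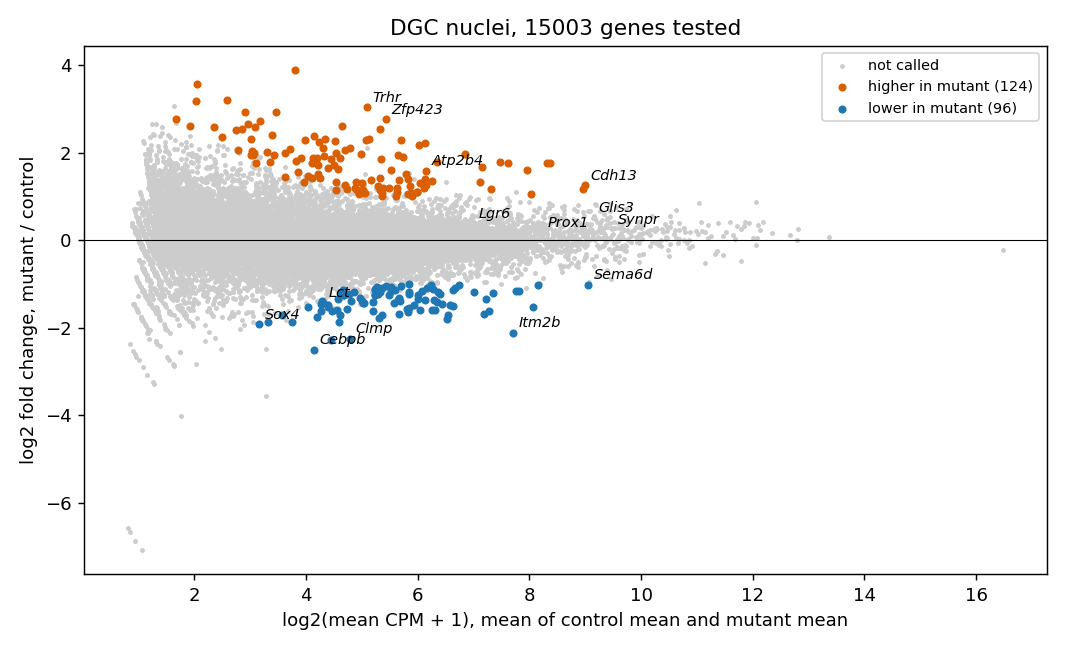
Log2 fold change between genotypes in DGC nuclei against the mean level as log2(CPM + 1), 1 point per gene tested. Genes called higher (124) are orange, genes called lower (96) blue, and the others grey. *Trhr* and *Zfp423* stand out among the rises and *Itm2b* and *Cebpb* among the falls, while the markers *Prox1*, *Synpr* and *Lgr6* have values of 0.18, 0.25 and 0.38 and *C1ql3*, which carries no label, -0.45.

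The 10 largest rises with both mutants above both controls included *Trhr*. *Zfp423*, a zinc finger factor on chromosome 8 (87661810 to 87959595), rose from 12.1 and 11.0 CPM to 57.4 and 88.8 CPM (log2 2.77, standard error 0.229, FDR 0.00164 in edgeR). *Trpc7*, a cation channel, was at 1.316 and 1.299 CPM in the control and 14.4 and 8.91 CPM in the mutant (log2 2.93), and *Lmx1a*, a homeobox factor of the roof plate and cortical hem, at 0.527 and 0.742 CPM in the control and 4.78 and 6.24 CPM in the mutant (log2 3.17), from 6, 12, 2 and 21 UMIs. *Trpc7* and *Lmx1a* passed the filter on low counts only through the mutant samples. Their place among the largest rises thus follows in part from the group where they were high. *Hrh1*, a histamine receptor, and *Atp10b*, a phospholipid flippase, rose by 2.78 and 2.74 on the log2 scale. *A730049H05Rik* rose by 3.22 from 9 and 28 control UMIs, and with mutant replicate 1 at 1 UMI. *Gm43948*, annotated as antisense and overlapping *Pdzrn3* on the other strand, rose by 2.94, and since *Pdzrn3* itself was at 7.63 and 7.17 CPM in the control and 21.5 and 16.3 CPM in the mutant without being called, the split of reads between them is uncertain.

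Among the largest rises, 2 long intergenic RNAs flank the same gene. *Gm29683* (chromosome 7, 70178868 to 70337852) had 10 and 44 UMIs in control replicates 1 and 2 and 6 and 113 in mutant replicates 1 and 2, which is 0.878 and 2.72 CPM against 14.4 and 33.6 CPM (log2 3.90, FDR 0.00788 in edgeR). *Gm28258* (70372038 to 70388410) had 2, 13, 2 and 23 UMIs in the same order (log2 3.57, FDR 0.0332 in edgeR), and passed the filter on low counts only through the mutant samples. Between these 2 RNAs lies *Nr2f2* (70351944 to 70366735), the nuclear receptor COUP-TFII, 14.1 kb from the first and 5.3 kb from the second. *Nr2f2*, named here after its values were seen, was at 10.2 and 10.5 CPM in the control and 31.1 and 47.8 CPM in the mutant, from 116, 170, 13 and 161 UMIs (log2 2.06, standard error 0.242, FDR 0.00662 in edgeR). These were the only 3 genes within 250 kb of *Nr2f2* with enough UMIs to be tested, and the other 4 of the table had at most 16 UMIs in any sample.

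The 10 largest falls included *Robo3*, *Sox4* and *Dhrs7*. *Cebpb*, a leucine zipper transcription factor, fell from 31.3 and 21.9 CPM to 9.57 and 3.86 CPM (log2 -2.50, standard error 0.408, FDR 0.0217 in edgeR). *Clmp*, an adhesion protein, fell from 40.8 and 50.0 CPM to 4.78 and 10.4 CPM (log2 -2.26). *Itm2b*, an integral membrane protein whose UMIs were far more numerous, fell from 364 and 304 CPM to 93.3 and 69.5 CPM, from 4152, 4911, 39 and 234 UMIs (log2 -2.12, FDR 0.00340 in edgeR). *Slc15a2*, a peptide transporter, *Gprc5b*, an orphan receptor, *Emp2*, a membrane protein, and *Arxes1* had log2 fold changes of -1.80, -1.77, -1.87 and -1.87.

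The 2 sets of called genes also differed in length and class. The median genomic span was 117.6 kb for the 124 higher genes and 9.4 kb for the 96 lower genes, against 27.2 kb for all genes tested. Protein-coding genes made up 75.8% of the higher and 99.0% of the lower genes, and 85.9% of all. Over all genes tested, the median log2 fold change was -0.24 for genes under 10 kb and 0.24 for genes over 300 kb. In CA1 nuclei the medians of the same bins were -0.15 and 0.16, so that a difference of the same sign by length was not limited to DGCs. The part of gene length in single calls was not tested.

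Of the lists of Wnt genes, which were drawn from textbook knowledge, 1 gene was called. Over all genes tested, 0.827% were called higher and 0.64% lower. No list here or below was tested as a set, so a few calls in a list are not read as a result about it. *Wnt4*, a secreted Wnt ligand (chromosome 4, 137277489 to 137299726), was at 5.27 and 8.97 CPM in the control and at 21.5 and 41.3 CPM in the mutant (log2 2.31, standard error 0.340, FDR 0.0137 in edgeR). Of 21 genes of Wnt ligands and secretion, 10 were tested, with a median log2 fold change of 0.36, and the other 9 tested were not called. None of 10 tested of 18 Wnt receptors was called, with values of 0.01 for *Lrp6*, -0.23 for *Ryk* and 0.57 for *Ror1*. None of 12 tested of 20 effectors and feedback genes of beta-catenin was called, with log2 fold changes of 0.17 for *Apc*, -0.08 for *Gsk3b*, 0.17 for *Znrf3* and -0.17 for *Axin1*.

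Among 24 tested transcription factors of granule cells, *Sox4* was called lower and 23 were not called, with a median of -0.02. Of all genes tested, 0.64% were called lower. Of 9 tested of 16 genes of immature granule cells, *Bhlhe22*, a basic helix-loop-helix factor, fell from 55.0 and 51.0 CPM to 16.7 and 23.8 CPM (log2 -1.24, FDR 0.0277 in edgeR). None of the 14 immediate early genes was called, with a median of 0.31. *Bdnf*, a neurotrophin, *Inhba*, an activin subunit, and *Junb*, a transcription factor, had log2 fold changes of -0.28, 0.13 and 0.08. *Homer1*, a postsynaptic scaffold protein with an activity-induced form, was at 118 and 88.1 CPM in the control and at 225 and 107 CPM in the mutant, so that the mutants differed from each other by more than the groups did.

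Of 24 genes of the mossy fibre terminal, 2 were lower and 22 were not called, with a median of -0.13, beside 0.64% lower over all genes tested. Besides *C1ql2*, *Rab3a*, a small GTPase of synaptic vesicles, fell from 80.9 and 83.2 CPM to 23.9 and 38.3 CPM (log2 -1.23, FDR 0.0266 in edgeR).

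Of 23 tested glutamate receptor genes, *Gria4*, an AMPA receptor subunit, rose from 187.8 and 147.0 CPM to 382.6 and 318.8 CPM (log2 1.05, FDR 0.0269 in edgeR), and 22 were not called. Of all genes tested, 0.827% were called higher. None of 14 GABA receptor genes was called, with a median of -0.05, and *Gabrb1*, *Gabbr2* and *Gabra2* had log2 fold changes of 0.0036, 0.25 and 0.14. *Kcnmb2*, the beta subunit of a calcium-activated potassium channel and here a marker of inhibitory neurons, rose from 16.2 and 18.1 CPM to 83.7 and 84.7 CPM (log2 2.29, standard error 0.187, FDR 0.00164 in edgeR). None of 20 sodium and calcium channel genes was called, with a median of 0.09, and *Cacna1c*, *Cacnb2*, *Cacna1e* and *Cacna2d1* had log2 fold changes between 0.06 and 0.36. Besides *Atp2b4*, none of the 16 calcium pumps, exchangers and buffers was called.

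Of 18 tested cadherin and desmosome genes, 2 were higher and 16 were not called, beside 0.827% higher and 0.64% lower over all genes tested. *Cdh13* rose from 272.0 and 333 CPM to 619 and 818 CPM (log2 1.26, FDR 0.0128 in edgeR) and *Cdh4* from 7.02 and 9.34 CPM to 26.3 and 44.6 CPM (log2 2.26, FDR 0.00782 in edgeR). Of 37 tested axon guidance genes, *Robo3* and *Sema6d*, a transmembrane semaphorin, were lower and 35 were not called. *Sema6d* fell from 735 and 688 CPM to 323 and 374 CPM (log2 -1.01, standard error 0.152, FDR 0.0149 in edgeR). Of 21 tested peptide and amine receptors, *Trhr* alone was called. None of 7 tested neuropeptide genes was called, although *Cck*, cholecystokinin, passed the FDR without the fold change (log2 -0.94, FDR 0.0411 in edgeR). *Sst*, somatostatin, and *Pdyn*, prodynorphin, had log2 fold changes of 0.72 and -0.38.

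Summed markers of several other cell types were also higher in the DGC nuclei of mutants. Without scaling, the 6 inhibitory neuron markers summed to 120 and 134 CPM in the control and 304 and 217 CPM in the mutant, and the 5 mossy cell markers to 9.58 and 10.0 CPM against 31.4 and 21.9 CPM, with *Csf2rb2* and *Cpne9* at 0 in mutant replicate 1. Within the inhibitory list *Erbb4*, *Rbms3* and *Kcnmb2* had positive log2 fold changes of 1.40, 1.10 and 2.29, whereas the GABA synthesis genes *Gad1* and *Gad2* and *Kcnip1* had -0.27, -0.65 and -0.45. The CA3 list summed to 907 and 890 CPM in the control and 1253 and 1325 CPM in the mutant, the astrocyte list to 321 and 360 CPM against 444 and 415 CPM, and the microglia list to 68.4 and 78.4 CPM against 94.2 and 106 CPM. The OPC list summed to 24.0 and 37.6 CPM in the control and 50.7 and 63.6 CPM in the mutant, and the meninges and vessel list to 6.24 and 11.1 CPM against 12.1 and 28.9 CPM. *Megf11* alone made up 48.3 and 58.97 CPM of the mutant OPC sums, and *Wdr17*, at 86.8 and 94.6 CPM in the control and 191 and 163 CPM in the mutant, carried the astrocyte list, in which *Apoe*, *Aqp4* and *Gja1* had log2 fold changes of -0.79, -2.31 and -0.65. In mutant replicate 1 the astrocyte genes *Aqp4* and *Gja1*, the OPC genes *Pdgfra* and *Cspg4*, the microglia gene *Ctss* and 6 of the 7 meninges and vessel genes were at 0. The oligodendrocyte list went the other way, with 378 and 354 CPM in the control and 299 and 333 CPM in the mutant, and the CA1 and choroid plexus lists overlapped between genotypes. *Trpc7* and *Kcnmb2* are members of the mossy cell and inhibitory neuron lists and were the only markers of other types called. The part of these transcripts in the calls was not tested directly. Nuclei that held 2 or more genes of the inhibitory neuron, astrocyte, oligodendrocyte, OPC or microglia list were then left out. UMIs were not thinned for this, and the other lists, such as CA3 and mossy cell, were not used. This kept 42.4% and 18.0% of the control and 45.6% and 15.1% of the mutant DGC nuclei, in replicates 1 and 2. The smaller shares were those of replicates 2, whose DGC nuclei were deeper. In the nuclei kept, 81 genes were higher and 31 lower, of which 58 and 26 were among the 124 and 96, and 18 of the 32 named calls with a value remained.

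The calls needed both mutant samples. Without mutant replicate 1, 15 genes were higher and 1 lower, and without mutant replicate 2, edgeR called 0 genes in either direction, with 411 higher and 755 lower at an unadjusted p below 0.05 and FC above 2. Of the 38 called genes that the naming rule selected, those 2 fits called 8 and 0.

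For part of the called genes, the difference between genotypes was larger in DGCs than in CA1 or CA3 pyramidal nuclei of the same mice. In CA1 and CA3 on their own edgeR called 0 genes, with 299 and 474 genes past FC above 2 at an unadjusted p below 0.05. A test of the interaction between genotype and cell type found 428 genes whose genotype effect differed between DGCs and CA1, 2.52% of 16987 tested, and 379 between DGCs and CA3, 2.36% of 16057. Of the 124 genes higher in DGCs, 80 rose by more than in CA1 by this test and 66 by more than in CA3. Of the 96 lower, 39 fell by more than in CA1 and 28 by more than in CA3. The 124 and 96 genes were chosen for their change in the same DGC counts. That choice favours a larger change in DGCs in advance, so these counts are not independent evidence of it. DESeq2 found 93 and 63 genes, and without mutant replicate 2 the numbers were 54 and 104, without control replicate 1 they were 179 and 195, and without control replicate 2 the CA1 number was 249.

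All 6 ventral genes rose by more in DGCs than in CA1, from 0.81 for *Atp2b4* to 2.04 for *Ano2* on the log2 scale, with interaction FDRs from 3.8e-07 for *Ano2* to 0.0164 for *Timp2* in edgeR. Against CA3 this held for *Ano2*, *Stk32b* and *Atp2b4*, whereas *Trhr* had a log2 fold change of 3.02 in CA3 nuclei as well, where its level was 0.393 and 0.866 CPM in the control and 1.70 and 7.82 CPM in the mutant without scaling. In mossy cell nuclei *Trhr* was at 2.43 and 10.9 CPM in the control and 37.5 and 29.0 CPM in the mutant. These values rest on only 38 and 32 control and 27 and 89 mutant nuclei. A higher level of *Trhr* in mutants was thus not seen in DGCs alone, though from few nuclei or at low levels elsewhere. *Robo3*, *Sox4* and *Lct* fell by more in DGCs than in either pyramidal type, with log2 differences against CA1 of -1.85, -1.85 and -1.23, whereas *Dhrs7* did not pass the test against either. *Zfp423*, *Wnt4*, *Cdh4*, *Kcnmb2* and *Nr2f2* rose by more in DGCs than in both types. The fall of *Itm2b* was -1.06 in CA1 and -1.09 in CA3, and larger in DGCs by 0.98 and 0.85.

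**Figure D5:**
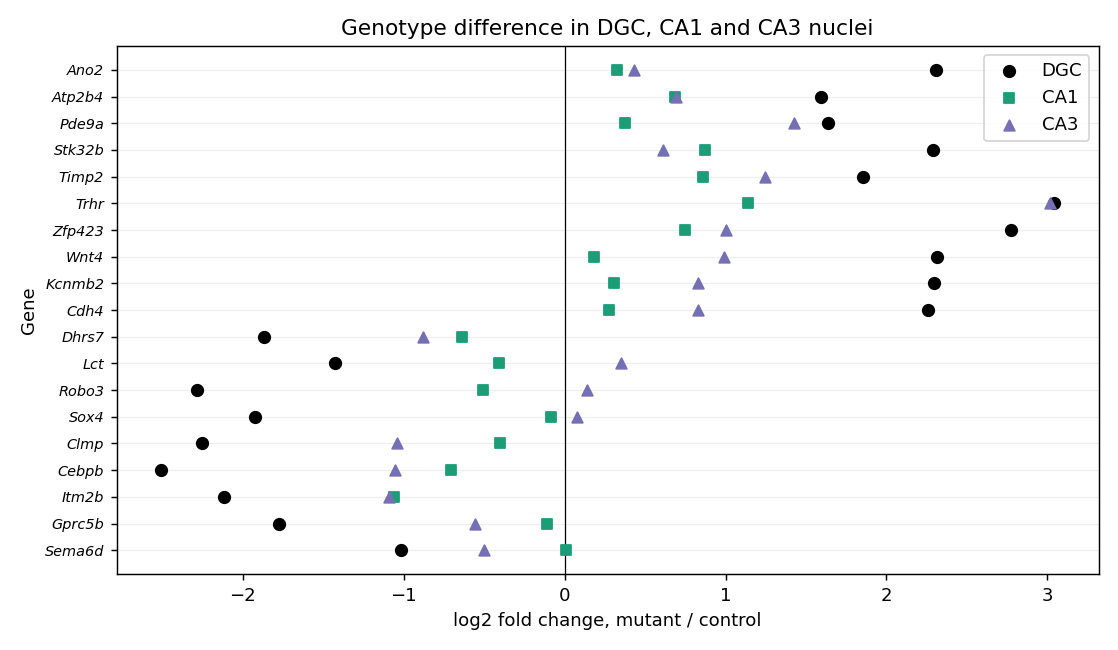
Log2 fold change between genotypes for 19 named genes in DGC (circles), CA1 (squares) and CA3 (triangles) nuclei. The genes were chosen for their change in DGCs, where all 19 values lie farthest from 0, and the CA3 value of *Trhr*, 3.02, lies beside its DGC value of 3.04.

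DGC markers also passed the interaction test, through their level in CA1 nuclei. *Prox1* was at 11.6 and 12.3 CPM in control CA1 nuclei and at 1.42 and 6.02 CPM in mutant CA1 nuclei without scaling, a log2 fold change of -1.56, against 0.18 in DGCs. *Lgr6*, *Glis3* and *Dsp* had values of -1.36, -1.27 and -2.99 in CA1. The share of DGC nuclei moved with these levels, and the part of free RNA from DGCs in them was not tested.

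In bulk tissue the same genes were read from 4 other libraries of 56002381 to 79576196 expected counts. Of the 28 genes of the DGC panel, the ventral and the dorsal lists, all of which were tested, 15 were lower in the mutant and 0 higher at FC above 2 and FDR below 0.05. Over all 20687 genes, 0.367% were lower and 0.029% higher. The lists were chosen with earlier results of these data known. The study had already reported that most transcripts reduced in these bulk mutants were enriched in DGCs. The count of lower genes is therefore not independent evidence. In bulk samples, fewer cells of a type and less RNA per cell cannot be told apart. *Dsp* fell from 100.4 and 102.5 CPM to 8.43 and 13.7 CPM (log2 -3.19, FDR 0.0185 in edgeR), and *Plk5* from 22.7 and 20.4 CPM to 2.99 and 3.09 CPM. Of the 4 markers, *Prox1*, *C1ql3* and *Lgr6* were lower, with log2 fold changes of -2.73, -1.72 and -3.24, and *Synpr* missed the fold change at -0.89. *Wls* was at 13.2 and 13.03 CPM in the control and at 3.67 and 6.87 CPM in the mutant and was not called (log2 -1.31, FDR 0.117 in edgeR).

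The 6 ventral and 6 dorsal genes were not called in bulk tissue. *Trhr* and *Ano2* were at 3.53 and 3.07 CPM, and at 4.13 and 1.79 CPM, in the control and at 1.92 and 0.780 CPM, and at 1.68 and 0.415 CPM, in the mutant, with log2 fold changes of -1.30 and -1.52 (FDR 0.208 and 0.340 in edgeR). *Stk32b*, *Pde9a*, *Timp2* and *Atp2b4* had values of -0.03, 0.33, 0.41 and -0.81. Of the dorsal genes, *Robo3* and *Lct* had log2 fold changes of -0.75 in bulk tissue, the former with an FDR of 0.0408 in edgeR, and *Sox4*, which is also expressed in other cell types, had 0.13. Without control replicate 1 or control replicate 2 of the bulk samples edgeR called 0 of the 28 genes, where the lone control library is assumed to vary like the mutants. *Itm2b*, which fell in DGC nuclei, was at 604 and 578 CPM in bulk controls and at 659 and 677 CPM in bulk mutants.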

How the data were processed

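Nuclei from 2 mutant and 2 control mice were profiled by snRNAseq, and hippocampal RNA from 2 further libraries of each genotype by bulk RNAseq. The authors made the UMI counts with Cell Ranger 3.1.0 against an mm10 pre-mRNA index, so that intronic reads count, and filtered, clustered and annotated nuclei in Monocle. Their annotation was used as deposited, and no doublet caller was run. The deposited bulk expected counts came from RSEM 1.3.0 with Bowtie2 2.2.9 and were rounded here. The authors' normalized matrix (a signal, expected counts over size factors) served as an alternative. The deposited TPM and FPKM values and the per-nucleus size factor, a ratio made by the authors, entered no result.

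UMIs were summed per mouse and type, and tested with edgeR 4.0.16 (filterByExpr, TMM, quasi-likelihood) in R 4.3.3, in place of the study's regression over nuclei, with DESeq2 1.42.0 and limma 3.58.1 as alternatives. The interaction fits had mouse as a covariate. The standard errors given for edgeR were not estimated by the fit. They were derived as the absolute log2 fold change over the square root of the F statistic of the test. Nuclei were thinned to 1500 UMIs with a fixed seed. Intervals are exact binomial (95%) and cover counting error only. The scripts were tested on simulated data.

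The members and gene lists were chosen with earlier results of these data known. Named genes are the marker, panel, ventral, dorsal and module lists, *Wls*, the 10 largest called rises and falls with both mutants outside the control range, called members of the other lists and, in lists with none called, up to 4 members of highest control level. *Nr2f2* and *Pdzrn3* were named after their values were seen. Gene coordinates are from GENCODE vM21 and promoters from RefSeq, both GRCm38. Each mouse is 1 sample. Some genes selected by this rule are not reported here.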

Additional observations from a re-analysis of the deposited data

Results flagged for a closer look

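The genotype effect differed between DGCs and CA1 nuclei for 428 genes and between DGCs and CA3 nuclei for 379 genes by the interaction test in edgeR. Among the ventral and dorsal genes, the log2 effect in DGCs minus that in CA1 was 2.04 for *Ano2*, 1.8 for *Trhr*, 1.61 for *Stk32b*, 1.25 for *Pde9a*, 0.93 for *Timp2*, 0.81 for *Atp2b4*, -1.85 for *Robo3*, -1.85 for *Sox4* and -1.23 for *Lct*. Among the other large rises it was 2.6 for *Gm43948*, 2.41 for *Gm29683*, 2.24 for *Lmx1a*, 2.18 for *Trpc7*, 2.05 for *Atp10b* and 1.99 for *Zfp423*. Among the other large falls it was -1.99 for *Clmp*, -1.97 for *Cebpb*, -1.48 for *Gprc5b*, -1.01 for *Slc15a2* and -0.98 for *Itm2b*. Only genes that passed the test of the difference itself at an FDR below 0.05 are listed, so that their passing is not a result. The large rises *Gm28258*, *A730049H05Rik* and *Hrh1* are not among them. Neither are the large falls *Emp2*, *Arxes1* and *Dhrs7*, nor the dorsal genes *Il27ra* and *Nptx2*. With 2 samples a group, no single sample could be judged an outlier.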

How the results depend on the processing

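The share of DGC nuclei kept its direction and an unadjusted p below 0.05 in edgeR under every alternative run, with log2 fold changes from -4.24 to -2.85 without single samples. The numbers of genes higher and lower in DGCs, 124 and 96, became 295 and 261 with no filter on low counts, 56 and 63 with equal numbers of nuclei, 63 and 59 in nuclei with a ventral UMI, 81 and 31 without nuclei with markers of another type, and 72 and 26 at FC above 3. Without single samples they ranged from 0 to 363 higher and from 0 to 208 lower, highest without control replicate 2 and lowest without mutant replicate 2. DESeq2 gave 90 and 69. With the replicate number as a block there were 308 higher and 261 lower, including 122 and 95 of the main calls. Deviations of same-numbered samples correlated with r = 0.193 over all genes and 0.329 over the 6970 genes above 20 CPM, but with 2 pairs and no shared batch in the labels the samples share only a number. The interaction counts of 428 and 379 became 93 and 63 with DESeq2, and ranged from 54 to 335 and from 104 to 442 without single samples. The 15 genes lower in bulk tissue ranged from 0 to 20 without single samples, and were 12 with the replicate block. None of the 38 named calls changed sign under the alternatives that gave them a value, which in the fits without 1 sample follows from groups that do not overlap. Among genes not called, *Rhbdl3* went from 0.28 to -0.63 and *Dgat2l6* from -0.02 to 1.298 on the log2 scale without mutant replicate 2, and *Grm2* from -0.40 to 0.18 without nuclei with markers of another type. The cause of the changes was not tested beyond fewer nuclei or samples. The 90 DGC nuclei of mutant replicate 1 limit the precision of low genes.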
